A study of Mus musculus with 16 samples.

Results

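The genes described here build and break down glycogen, the branched glucose polymer that cells keep as an energy store. They were 9 named genes (Gys1, Gbe1, Gyg, Ugp2, Pgm2, Pygl, Pygb, Phka2 and Phkg2), found by their Ensembl identifiers among the 49585 identifiers of the study's count tables, and all 9 had counts in every library. RNA was sequenced from neutrophils sorted by flow cytometry from the bones of C57BL/6 mice aged 8 to 12 weeks. Vav:cre, a recombinase active in blood-forming cells and so in all blood lineages and not only in neutrophils, was used with floxed PHD2 (group P2KO), or with floxed PHD2 and HIF2 (group P2H2KO). Each deficient group had its own wild type group, P2WT and P2H2WT, and each of the 4 groups held 4 libraries. The titles carry the suffix m for 3 libraries of P2KO, 2 of P2WT, 2 of P2H2KO and 3 of P2H2WT, and f for the others. A library was taken as 1 mouse, which the labels do not state, so the p-values measure the spread between these libraries, and whether wild type animals carried Vav:cre or floxed alleles was not given in the sources used here. PHD2 is the oxygen sensor that marks the hypoxia-inducible factors HIF1 and HIF2 for destruction, and the question was which transcripts its loss alters and whether HIF2 is needed for that.

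As background, glycogen synthesis starts from glucose 6-phosphate, which phosphoglucomutase turns into glucose 1-phosphate and Ugp2 then activates to UDP-glucose. Glycogenin (Gyg) makes the primer, glycogen synthase (Gys1) lengthens the chains and the branching enzyme (Gbe1) adds branches. Glycogen phosphorylase (Pygl is the liver form, Pygb the brain form) releases glucose 1-phosphate again, and phosphorylase kinase, of which Phka2 encodes a regulatory and Phkg2 a catalytic subunit, switches phosphorylase on. Neutrophils hold glycogen and can use it to fuel glycolysis. Several genes of glycogen synthesis, among them Gys1, Gbe1 and Ugp2, are known targets of hypoxia-inducible factors in other cells.

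Library totals ran from 23450746 to 28601284 counts. All 5 neutrophil markers examined, among them Ly6g and S100a9, were present in every library, and their sum was 1.33% to 3.69% of counts. Erythroid markers, led by the haemoglobin genes, took 2.38% to 4.91% of counts (9 of 10 listed markers matched, none at 0 in a library). The targeted genes did not check the labels: Egln1, which encodes PHD2, was at 43.2 to 58.8 CPM (counts scaled to the size of the library) over all 16 libraries, and Epas1, which encodes HIF2α, was at 6.76 to 24.4 CPM in P2KO, 8.70 to 11.3 in P2WT, 3.42 to 8.39 in P2H2KO and 2.55 to 4.97 in P2H2WT. Counts over a whole gene can include reads outside a deleted exon, so the groups below are the libraries as labelled.

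Promoters from RefSeq (build GRCm38.p6, windows of 300 bases around RefSeq's start of the gene, mostly before it) were matched for all 9 genes. Hypoxia-inducible factors bind the core ACGTG or GCGTG, and both were searched on both strands. They are shown for Gys1 (chr7:45434589-45434888, plus strand), Pygl (chr12:70227634-70227933, minus strand) and Gyg (chr3:20155067-20155366, minus strand), which moved together from library to library, and for Pgm2 (chr5:64092689-64092988, plus strand) and Pgm1 (chr4:99929201-99929500, plus strand), a pair of enzymes whose values differed as described further on. Each is written 5′ to 3′ on the strand of the gene, with a core match on either strand in capitals.
Gys1: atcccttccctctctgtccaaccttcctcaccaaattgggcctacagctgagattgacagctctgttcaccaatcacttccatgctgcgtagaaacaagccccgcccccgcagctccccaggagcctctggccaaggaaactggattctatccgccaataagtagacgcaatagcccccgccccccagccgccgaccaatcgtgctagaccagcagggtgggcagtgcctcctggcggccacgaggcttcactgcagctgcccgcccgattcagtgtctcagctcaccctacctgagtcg
Pygl: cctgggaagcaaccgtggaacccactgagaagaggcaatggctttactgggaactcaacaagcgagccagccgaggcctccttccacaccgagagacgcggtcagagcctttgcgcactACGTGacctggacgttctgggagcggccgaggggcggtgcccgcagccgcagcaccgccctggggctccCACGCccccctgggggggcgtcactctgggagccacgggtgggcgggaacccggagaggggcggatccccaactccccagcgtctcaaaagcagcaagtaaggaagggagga
Gyg: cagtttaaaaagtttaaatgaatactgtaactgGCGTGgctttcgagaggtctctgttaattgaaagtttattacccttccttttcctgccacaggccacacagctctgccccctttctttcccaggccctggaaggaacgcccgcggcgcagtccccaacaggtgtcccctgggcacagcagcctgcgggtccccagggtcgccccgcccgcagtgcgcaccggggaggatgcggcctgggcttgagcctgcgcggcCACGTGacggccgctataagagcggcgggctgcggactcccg
Pgm2: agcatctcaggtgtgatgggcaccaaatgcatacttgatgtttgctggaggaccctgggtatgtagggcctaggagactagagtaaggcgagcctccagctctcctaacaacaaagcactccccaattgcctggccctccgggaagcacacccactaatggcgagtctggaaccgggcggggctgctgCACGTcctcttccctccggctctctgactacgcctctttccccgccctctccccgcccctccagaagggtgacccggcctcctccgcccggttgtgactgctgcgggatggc
Pgm1: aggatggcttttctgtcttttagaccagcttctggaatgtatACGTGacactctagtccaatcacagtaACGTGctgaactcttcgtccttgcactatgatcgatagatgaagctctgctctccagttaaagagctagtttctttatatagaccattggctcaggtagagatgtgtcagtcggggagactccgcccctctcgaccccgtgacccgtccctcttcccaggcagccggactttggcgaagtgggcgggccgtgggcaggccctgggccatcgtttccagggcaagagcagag

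For Pygl RefSeq's start, and with it the window, lies 3805 bases inside the gene as GENCODE M21 draws it, and for Gyg the start lies 201 bases inside, so these windows are not the sequence before the GENCODE start. The Gyg window held GCGTG and, just after RefSeq's start, the palindrome CACGTG, which reads as ACGTG on both strands. The Pygl window held 1 ACGTG and 1 GCGTG, the Pgm2 window 1 ACGTG and the Pgm1 window 2 ACGTG. No core was found in the windows of Gys1, Gbe1 and Phkg2. Of the windows not shown, the first of the pair listed for Ugp2 held 1 ACGTG and 5 GCGTG, where a GCGTG on one strand overlapped one on the other, and the second held none. Pygb had 1 of each and Phka2 1 GCGTG. Of 32851 promoters of the same length, 19.6% held ACGTG, 32.4% GCGTG, 43.8% at least 1 of them and 7.15% CACGTG. A match describes the letters only and is not evidence of binding.

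The liver form of phosphorylase was the most abundant of the 9 transcripts. Per kilobase of exon (CPM divided by the length of the merged GENCODE M21 exons), the median level over 16 libraries was 89.8 for Pygl, 45.2 for Gyg and 31.5 for Ugp2. Next came Gys1 at 17.9 and Pgm2 at 16.4, and these neighbours were not distinct, since Gys1 was the higher of the pair in 12 of 16 libraries. Phka2 at 10.2, Pygb at 10.2 and Gbe1 at 9.78 were not distinct either: Phka2 was above Pygb in 6 of 16 libraries and Pygb above Gbe1 in 8. Phkg2 was lowest, at 6.24, and every other neighbouring pair kept its order in 16 of 16 libraries.

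**Figure D1:**
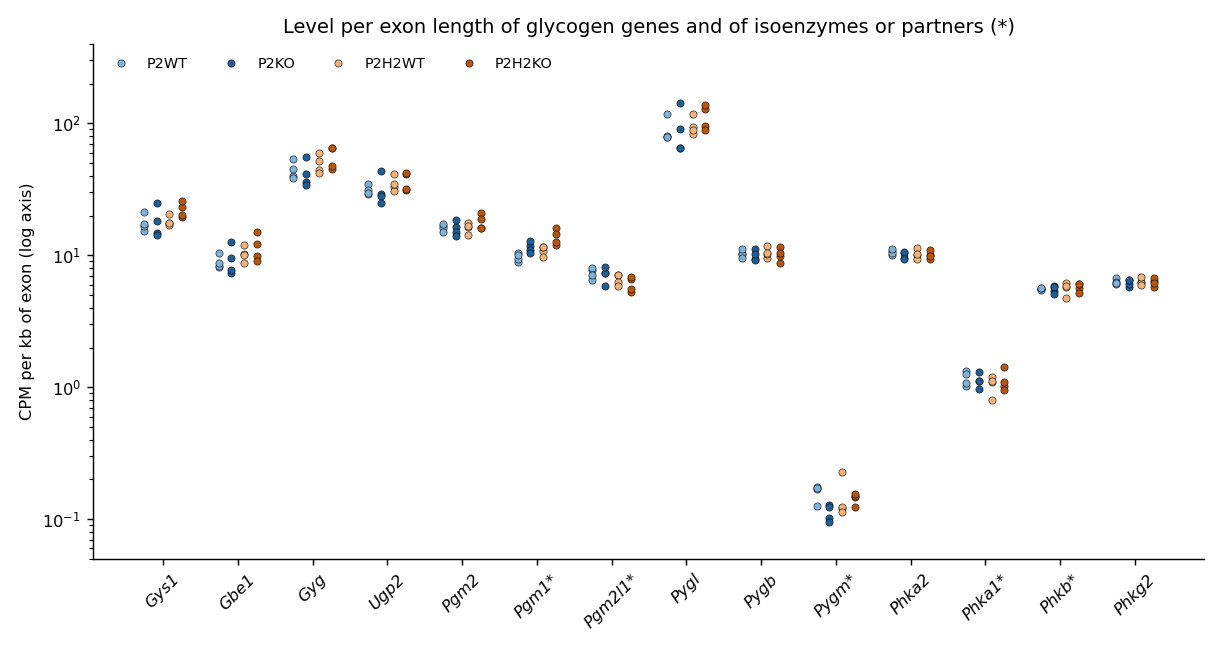
Level of each glycogen gene, and of isoenzymes or partner subunits marked with an asterisk, in CPM per kilobase of exon on a log axis; each point is 1 of 16 libraries, coloured by group. Pygl stands above the other phosphorylases Pygb and Pygm in every library, and Phka2 above Phka1.

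Among isoenzymes, 1 form led in each family. Pygl exceeded Pygb 9.48 ± 2.13-fold per length (SD, n = 16), with a range of 6.32 to 13.2. The muscle phosphorylase Pygm had 8 to 19 counts per library, and the liver glycogen synthase Gys2 had 0 counts in all 16, which allows up to 0.105 to 0.128 CPM in a library (3 counts, counting error only). The regulatory subunit Phka2 exceeded its muscle isoform Phka1 9.32 ± 1.64-fold per length (SD, n = 16). The muscle catalytic subunit Phkg1 had 0 to 10 counts per library, against 536 to 750 for Phkg2. The remaining subunit of the kinase, Phkb, was at 35.3 to 46.1 CPM. The ratio of phosphorylase Pygl to synthase Gys1 was 5.06 ± 0.43 per length (SD, n = 16) and varied less than either gene alone, with a range of 4.40 to 5.74.

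No glycogen gene passed the test without PHD2. In P2KO against P2WT, 0 of the 9 had an adjusted p under 0.05 by edgeR's quasi-likelihood test with Benjamini-Hochberg adjustment over all genes (0.0437% of 13734 genes tested did), 0 of 9 had an unadjusted p under 0.05 (3.49% of all genes), and DESeq2 called 0 of 9. In none did every P2KO library lie above every P2WT library, as was the case for 0.859% of all genes. The log2 fold change was above 0 for 4 of 9 (57.8% of all genes), with a median of -0.012 against 0.020 over all genes. It ran from -0.076 for Phka2 to 0.080 for Gbe1.

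The glycogen synthase Gys1 was at 68.0, 70.8, 87.0 and 118 CPM in P2KO and at 73.7, 79.5, 82.0 and 102 in P2WT. Its means were 86.1 ± 23.2 and 84.3 ± 12.3 CPM (SD, n = 4 each), a log2 fold change of 0.041 with a standard error (SE) of 0.18 and a 95% interval of -0.38 to 0.46. The groups overlapped over most of their range, and the highest library of each, P2KO replicate 6 and P2WT replicate 10, stood apart from the other 3.

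For Pygl the P2KO libraries were at 450.1, 452, 624 and 979 CPM and the P2WT libraries at 548, 548, 553 and 808. Its log2 fold change was 0.041 (SE 0.26), with a 95% interval of -0.55 to 0.64. The same 2 libraries were again the highest, and P2KO spanned the whole range of its controls. Without P2KO replicate 6 the log2 fold change was -0.26 for Pygl, -0.15 for Gys1, -0.10 for Gbe1 and -0.18 for Ugp2, none past the threshold.

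The branching enzyme Gbe1 was at 39.2, 41.3, 51.4 and 67.4 CPM in P2KO and at 43.6, 44.3, 46.7 and 55.4 in P2WT. The primer gene Gyg was at 80.1, 83.9, 97.4 and 129.6 CPM in P2KO and at 89.8, 93.1, 105 and 126 in P2WT. Ugp2, which makes UDP-glucose, was at 75.9, 87.1, 89.4 and 135 CPM in P2KO and at 89.3, 91.3, 96.2 and 107 in P2WT. For all 3 genes P2KO replicate 6 was the highest of the 8 libraries, the other P2KO libraries lay among or below the controls, and the standard error of the log2 fold change was 0.17.

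The remaining genes were steadier. On the log2 scale the brain phosphorylase Pygb differed by -0.027 (SE 0.080) and Pgm2 by -0.015 (SE 0.095). The kinase subunit Phka2 was at 56.5 to 63.8 CPM in P2KO and 61.5 to 67.2 in P2WT, a log2 fold change of -0.076 (SE 0.064), and Phkg2 was at 23.1 to 26.1 and 24.4 to 26.7 CPM, one of -0.012 (SE 0.068). The interval for Phkg2 ran from -0.17 to 0.14 on the log2 scale, whereas that of Pygl reached a 1.55-fold change.

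**Figure D2:**
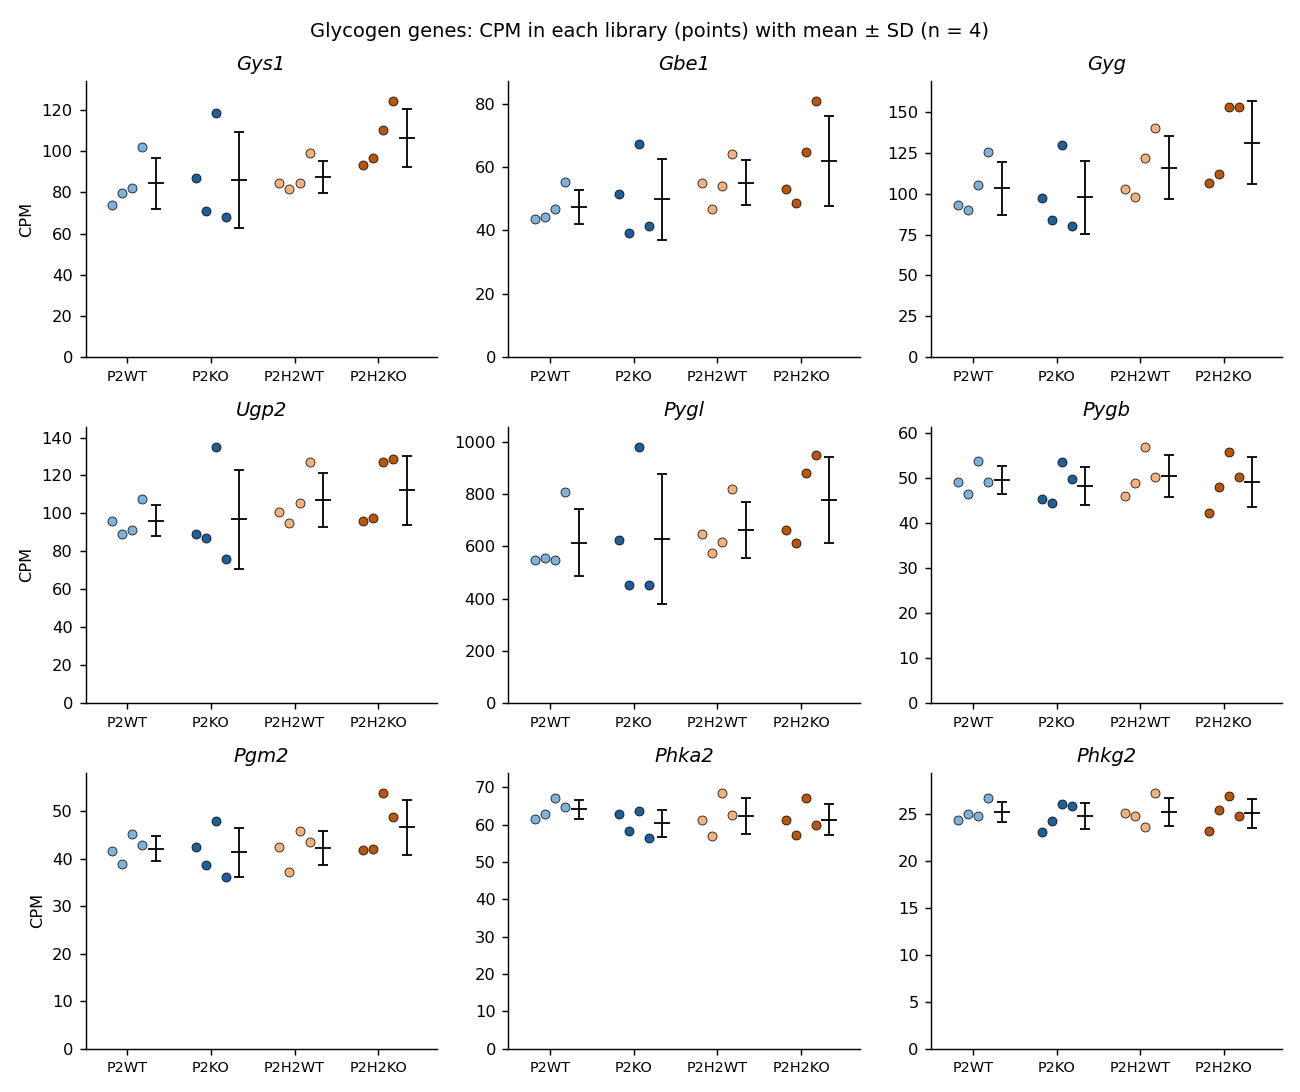
CPM of the 9 glycogen genes in each library (points; 4 per group) with the group mean and SD beside them, on axes that start at 0. For Gys1, Gbe1, Gyg, Ugp2 and Pygl the same library is the highest within P2KO, P2WT and P2H2WT, whereas Pygb, Phka2 and Phkg2 vary less.

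In the line deficient for PHD2 and HIF2 more of the estimates were above 0, but again none passed. In P2H2KO against P2H2WT, 0 of 9 had an adjusted p under 0.05 by edgeR (0.0744% of 13435 genes did) and DESeq2 also called 0. The log2 fold change was above 0 for 6 of 9 (50.5% of all genes), and its median was 0.14 against 0.0011 over all genes. At an unadjusted p under 0.05 there was 1 of 9, Gys1, beside 2.63% of all genes, and that was lost when any 1 of 4 libraries was left out. No member had all P2H2KO libraries above all P2H2WT libraries (0.901% of all genes did).

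Gys1 was at 93.3, 96.9, 110.5 and 124 CPM in P2H2KO and at 81.7, 84.6, 84.7 and 99.1 in P2H2WT. The means were 106 ± 14.04 and 87.5 ± 7.85 CPM (SD, n = 4 each), a log2 fold change of 0.28 (SE 0.10) with a 95% interval of 0.046 to 0.51. The adjusted p was 1 (edgeR, Benjamini-Hochberg), and over its alternatives it ran from 0.655 to 1. The groups overlapped in that the highest control, P2H2WT replicate 18, lay above the 2 lowest deficient libraries. With 1 library left out at a time the log2 fold change ran from 0.20 to 0.34 and the unadjusted edgeR p from 0.0113 to 0.0686. It was above 0.05 without P2H2KO replicate 17 or without P2H2WT replicate 13, 14 or 16.

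Pygl was at 613, 661, 882 and 951 CPM in P2H2KO and at 574, 615, 645 and 818 in P2H2WT, a log2 fold change of 0.23 (SE 0.17). Gbe1 was at 48.7, 53.2, 64.7 and 80.7 CPM in P2H2KO and at 46.8, 54.1, 55.1 and 64.1 in P2H2WT, a log2 fold change of 0.17 (SE 0.16). In both genes 2 of the P2H2KO libraries, replicates 15 and 17, lay above every control, and the other 2 lay among the controls.

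Gyg was at 107, 112, 153 and 153 CPM in P2H2KO and at 98.1, 103, 122 and 140.2 in P2H2WT, a log2 fold change of 0.18 (SE 0.15). Ugp2 was at 95.8, 97.4, 127 and 129 CPM in P2H2KO and at 94.8, 101, 106 and 127 in P2H2WT, a log2 fold change of 0.069 (SE 0.13). Replicates 15 and 17 of P2H2KO were again the high ones. Pgm2, one of the phosphoglucomutases, was at 41.9 to 53.8 CPM in P2H2KO and 37.2 to 45.8 in P2H2WT, a log2 fold change of 0.14 (SE 0.10).

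Pygb, Phka2 and Phkg2 lay within 0.04 of 0 on the log2 scale, at -0.039 (SE 0.098), -0.023 (SE 0.077) and -0.0048 (SE 0.073). Their deficient and control libraries covered nearly the same range: 42.2 to 55.7 against 45.8 to 56.7 CPM for Pygb, 57.3 to 67.1 against 57.0 to 68.5 for Phka2, and 23.2 to 26.9 against 23.6 to 27.3 for Phkg2.

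Both lines together gave the same picture. For the mean of the 2 genotype effects over 16 libraries, edgeR called 0 of 9 (0.17% of 14080 genes) and 0 of 9 had an unadjusted p under 0.05 (3.72% of all genes). The largest estimate was that of Gys1, a log2 fold change of 0.15 (SE 0.11) with a 95% interval of -0.082 to 0.39. The estimate was above 0 for 6 of 9 (51.9% of all genes). Pygl followed at 0.13 (SE 0.17), and without P2KO replicate 6 it was at -0.022. DESeq2 called 0 of the 9 here too.

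Whether the effect of the genotype differed between the lines was tested directly, as P2KO minus P2WT less P2H2KO minus P2H2WT. By edgeR 0 of 9 passed (0% of 14080 genes did), 0 of 9 had an unadjusted p under 0.05 (1.51% of all genes), and DESeq2 called 0 of 9. Estimates above 0 were 0 of 9 (50.4% of all genes). They ran from -0.26 for Gyg to -0.0003 for Pygb, and 4 of them turned above 0 under other settings or with 1 library left out. The difference for Gys1 was -0.25 (SE 0.22), with an interval of -0.72 to 0.22, so differences of either sign remained possible. Between the control groups P2WT and P2H2WT, 0 of 9 passed by edgeR (1.22% of 13593 genes did), 0 of 9 had an unadjusted p under 0.05 (11.4% of all genes), DESeq2 called 0, and 1 estimate of 9 was above 0 (46.6% of all genes). Gbe1 was farthest from 0 there, at -0.22 (SE 0.10), and line and count table cannot be told apart in that comparison.

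**Figure D3:**
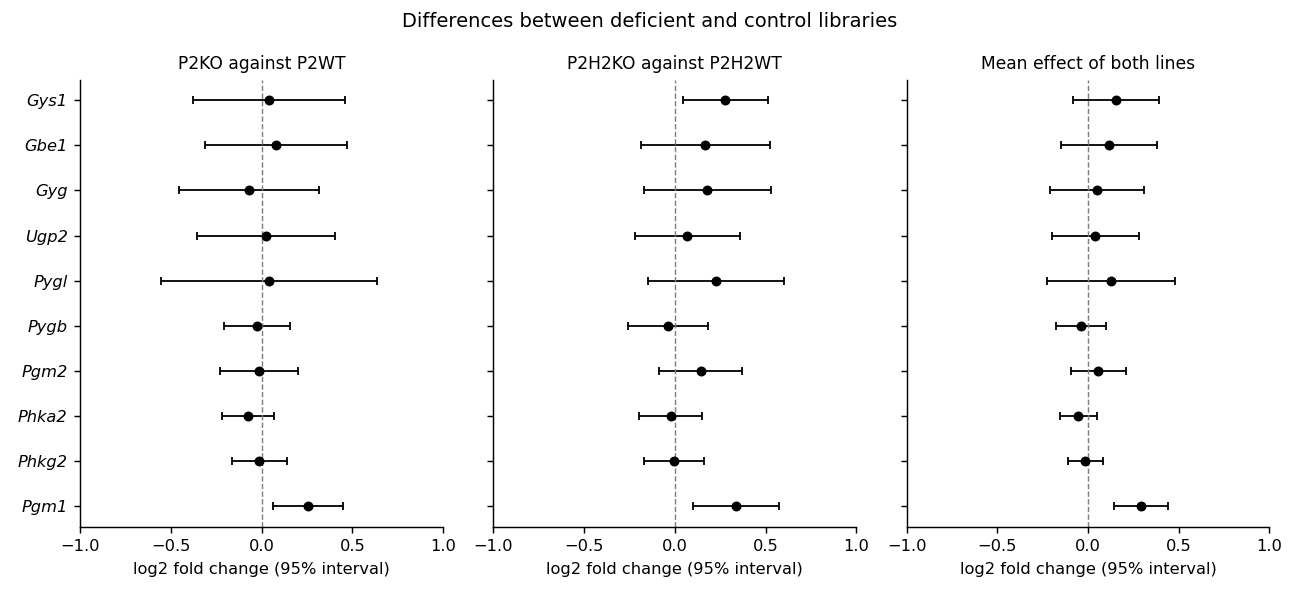
Log2 fold change with its 95% interval (edgeR) for the 9 glycogen genes and for Pgm1, in P2KO against P2WT, P2H2KO against P2H2WT and the mean of both effects; the dashed line marks no change. The intervals of the 9 genes include 0 except that of Gys1 in P2H2KO against P2H2WT, and those of Pgm1 lie above 0 in all 3 panels.

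A phosphoglucomutase outside the 9, Pgm1, did not overlap between the genotypes in either line, and it is described as 1 gene picked from the longer list of the pathway after its values were seen. The 2 names need care: in GENCODE M21 Pgm2 is the gene on chromosome 5 and Pgm1 the gene on chromosome 4, and RefSeq lists each name as an older synonym of the other. Pgm1 was at 30.5, 31.9, 34.1 and 37.2 CPM in P2KO and at 25.9, 27.2, 29.4 and 30.3 in P2WT, a log2 fold change of 0.26 (SE 0.085). In the other line it was at 34.8, 36.7, 42.3 and 47.3 CPM in P2H2KO and at 28.6, 31.3, 33.8 and 33.8 in P2H2WT, a log2 fold change of 0.34 (SE 0.11). In both lines every deficient library lay above every control, which was so for 1 of 37 listed pathway genes tested (0.859% of all genes) in the first line and 1 of 38 (0.901%) in the second. Both intervals lay above 0 (0.064 to 0.45 and 0.098 to 0.58), but neither adjusted edgeR p passed (1 in both).

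The mean effect on Pgm1 was 0.29 on the log2 scale (SE 0.069), with a 95% interval of 0.14 to 0.44. Its adjusted p was 0.193 (edgeR, Benjamini-Hochberg), which did not pass. With DESeq2 the adjusted p was 0.031 and did, and over all alternatives the adjusted p ran from 0.0198 to 0.491. The 2 lines did not differ detectably, with a difference of -0.091 (SE 0.14) and an interval of -0.38 to 0.20. Pgm1 was also lower in P2WT than in P2H2WT, with a log2 fold change of -0.18 (SE 0.079) between these control groups. That interval ran from -0.36 to -0.0054, with an edgeR p of 0.0445 unadjusted and 0.42 adjusted. Line and count table cannot be told apart there. The P2KO libraries (30.5 to 37.2 CPM) overlapped the controls of the other line, P2H2WT (28.6 to 33.8). The level of Pgm1 moved with the late granule markers described further on. In P2KO against P2WT, markers of other cells did not overlap either: the 11 monocyte and macrophage markers summed to 1828 to 2214 CPM in P2KO and 2285 to 2775 in P2WT, and the 7 T and NK cell markers to 57.0 to 78.8 and 81.7 to 93.9. In the other line both lists overlapped, at 1904 to 3398 CPM in P2H2KO against 2151 to 3274 in P2H2WT, and 70.0 to 96.1 against 69.7 to 87.3. The 8 B cell markers were 0.35 lower there in mean log2 level, with ranges of 194 to 503 and 302 to 633 CPM. No marker of these lists was at 0 in a library, and their part in the Pgm1 values was not tested. Exons of Pgm1 share 398 bases with Itgb3bp on the other strand, and strand use in counting was not given in the sources used here. Per length, the ratio of Pgm1 to Pgm2 was 0.688 to 0.747 in P2KO against 0.552 to 0.626 in P2WT, and 0.736 to 0.780 in P2H2KO against 0.654 to 0.688 in P2H2WT, given as a description.

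**Figure D4:**
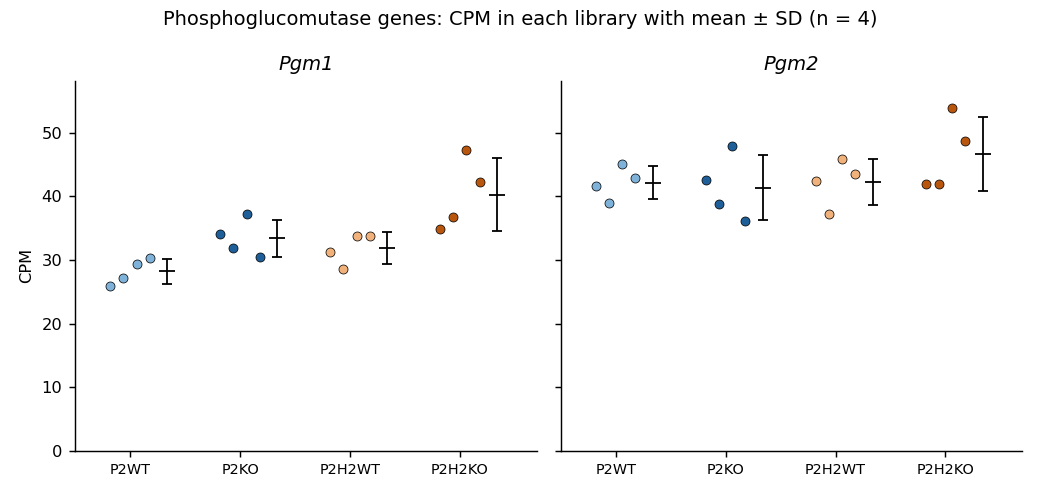
CPM of Pgm1 and Pgm2 in each library (points; 4 per group) with mean and SD, on a shared axis from 0. For Pgm1 the lowest P2KO library (30.5) is above the highest P2WT library (30.3) and the lowest P2H2KO library (34.8) above the highest P2H2WT library (33.8), whereas the groups overlap for Pgm2.

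Among the other 45 genes of glycogen and UDP-glucose metabolism that were listed, 37 were tested in the first line and 38 in the second. None had an adjusted p under 0.05 by edgeR in either line or in the mean effect. In P2KO against P2WT the unadjusted p was under 0.05 for 2 of 37 (3.49% of all genes), Pgm1 and the galactokinase Galk1, the latter differing by 0.24 on the log2 scale (SE 0.085). In P2H2KO against P2H2WT it was for 2 of 38 (2.63% of all genes), Pgm1 and Ppp1r3e, the latter differing by 0.30 (SE 0.13). With 1 library left out, the unadjusted edgeR p of Galk1 rose above 0.05 in 3 of 8 fits (without P2KO replicate 5 or 9 or P2WT replicate 4, at most 0.0667). That of Ppp1r3e did in 6 of 8 (without P2H2KO replicate 11, 12 or 15 or P2H2WT replicate 13, 14 or 18, at most 0.11), and that of Pgm1 in 0 of 8 in either line. Ppp1r3e encodes a subunit that brings protein phosphatase 1 to glycogen. The log2 fold changes of Phkb, Phka1 and Pgm2l1 lay between -0.12 and 0.10 in both lines. Pygm, at 8 to 19 counts per library, had the lowest estimate of the list in P2KO against P2WT, a log2 fold change of -0.49 (SE 0.23, 95% interval -1.01 to 0.026), and -0.036 (SE 0.29) in the other line. Gys2, Phkg1, G6pc, Ppp1r3a, Ppp1r3c, Ppp1r3g and Prkaa2 had too few counts to be tested.

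Within groups, libraries differed from each other in the same way for 5 of the 9 genes. With the group means removed, the 10 pairs among Gys1, Gbe1, Gyg, Ugp2 and Pygl had Pearson r of 0.896 to 0.976 and Spearman rho of 0.826 to 0.974 over 16 libraries. All 10 had an adjusted permutation p of at most 0.0017 for r and 0.00292 for rho (2-sided, permuted within groups, Benjamini-Hochberg over 36 pairs), and without the 2 farthest libraries r was 0.838 to 0.954. Pgm2 followed these 5 less closely, with r of 0.718 to 0.857. Of the 21 pairs with Pygb, Phka2 or Phkg2, 3 passed for r and 5 for rho, and r ran from 0.021 to 0.854. The highest library was P2KO replicate 6, P2WT replicate 10 and P2H2WT replicate 18 in their groups for each of the 5 genes, and P2H2KO replicates 15 and 17 were the highest in theirs. Over the 16 libraries the highest level was 2.18 times the lowest for Pygl and 2.06 times for Gbe1, against 1.18 times for Phkg2.

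Markers of late granules, the lactoferrin and gelatinase granules that neutrophils fill as they mature, moved with these genes. The 6 markers (Ltf, Camp, Ngp, Lcn2, Mmp8 and Mmp9) summed to 1.89% to 4.75% of counts, and none was at 0 in a library. Their range was 18944 to 43418 CPM in P2KO, 23710.2 to 36494 in P2WT, 25317 to 47532 in P2H2KO and 26791 to 40700.1 in P2H2WT. Their mean log2 level was 0.087 lower in P2KO than in P2WT and 0.14 higher in P2H2KO than in P2H2WT. The 5 neutrophil markers peaked in the same library of each group as these 6. They stood at 31907 CPM in P2KO replicate 6, 26808 in P2WT replicate 10, 36934 in P2H2KO replicate 17 and 31159 in P2H2WT replicate 18. Erythroid markers were lowest in P2KO replicate 6 (23849 CPM) and P2H2WT replicate 18 (34873), but not in P2WT replicate 10 or P2H2KO replicate 17. Mature neutrophil markers, a list that shares Cxcr2 and Csf3r with the neutrophil list, peaked there too. They stood at 3338 CPM in P2KO replicate 6, 3166 in P2WT replicate 10, 3326 in P2H2KO replicate 17 and 3033 in P2H2WT replicate 18. Early granule markers (Mpo, Elane, Prtn3 and Ctsg) were instead lowest of their group in P2KO replicate 6 (2136 CPM), P2WT replicate 10 (2615) and P2H2WT replicate 18 (2163). In P2H2KO replicate 17 they stood at 3621 CPM, within a group range of 2808 to 3637. The relation of these other lists to the glycogen genes was not tested. In bulk libraries a larger share of neutrophils, a larger share of mature cells and more RNA of these genes per cell cannot be told apart.

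With group means removed, Pygl followed the summed late granule markers with r = 0.990 and rho = 0.971 over 16 libraries. The permutation p was 3e-05 for r and 0.00011 for rho, and adjusted over 11 relations 0.00033 and 0.000477. Pygl rose by 0.87 on the log2 scale per log2 unit of these markers. Its r was 0.997 within the P2 line, 0.990 within the P2H2 line and 0.990 without the 2 farthest libraries. The r was 0.968 for Gbe1, 0.960 for Gys1, 0.947 for Ugp2 and 0.922 for Gyg, with adjusted permutation p of at most 0.000917. For Pgm2 it was 0.725 (rho 0.738, adjusted permutation p = 0.0177 and 0.0197), and 0.631 without the 2 farthest libraries. For Phkg2 (0.484), Phka2 (0.457) and Pygb (0.396) the adjusted permutation p was 0.126, 0.126 and 0.198. Of the partners, the phosphatase targeting subunit Ppp1r3b had r = 0.968 (rho 0.912) and Pgm1 r = 0.740 (rho 0.800), with adjusted permutation p of at most 0.00838 for r and 0.00478 for rho. All markers and genes were read from the same libraries and share their depth and cell content.

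**Figure D5:**
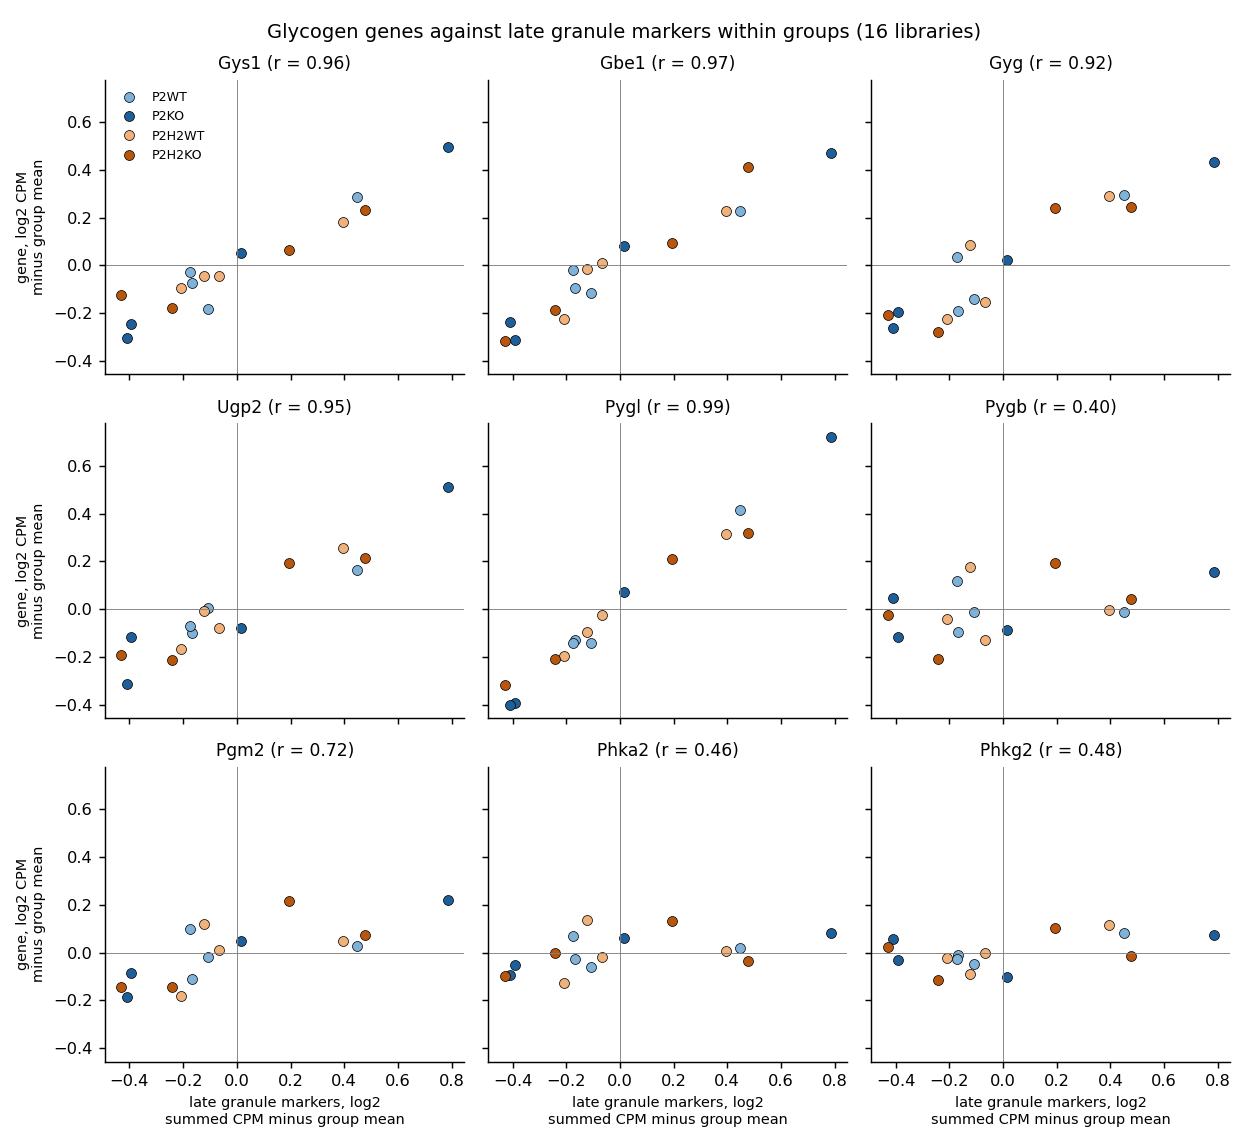
Each panel plots 1 glycogen gene (log2 CPM minus its group mean) against the summed late granule markers (log2 CPM minus the group mean) in 16 libraries, coloured by group, with Pearson r in the title. Gys1, Gbe1, Gyg, Ugp2 and Pygl rise along the markers in every group, and Pygb, Phka2 and Phkg2 stay nearly flat.

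With the late granule level as a covariate, an alternative chosen after seeing the data, the spread of these genes was smaller. The log2 fold change of Gys1 in P2H2KO against P2H2WT was then 0.22 (SE 0.053, edgeR adjusted p = 0.655), and its mean effect 0.12 (SE 0.038, adjusted p = 0.389). For Pygl the SE in P2KO against P2WT fell from 0.26 to 0.048, around a log2 fold change of 0.066. No glycogen gene passed in any of the 5 comparisons. The mean effect on Pgm1 was 0.28 (SE 0.050, edgeR adjusted p = 0.0198) and passed in that fit.

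The genes whose profile was most like each member, by Pearson r of log2 CPM after removing the mean of each line over 16 libraries, are given as a description. They came from 8555 genes with a mean of at least 10 CPM. Pygl was nearest to Cd177 (0.992), a surface protein of neutrophils, and Mmp25 (0.991), a membrane metalloproteinase. Gys1 was nearest to Lrg1 (0.980) and Gpi1 (0.964), a glycolytic isomerase. Gbe1 was nearest to Lta4h (0.983), which makes leukotriene B4, and Adgrg3 (0.980), Gyg to Lbp (0.986) and Tmem63a (0.985), and Ugp2 to the actin gene Actb (0.991) and Zfp516 (0.985). Pgm2 was nearest to Impa2 (0.963) and App (0.951), Pygb to Cyb5b (0.928) and G3bp2 (0.891), Phka2 to Erlin2 (0.923) and Dr1 (0.903), and Phkg2 to Ccdc93 (0.831) and Bicral (0.829).

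Read assignment limits some of these values. In GENCODE M21 on GRCm38, exons of Gys1 (chromosome 7, 45434844 to 45456619, plus strand) share 310 bases with Ruvbl2 on the other strand, and those of Phkg2 (chromosome 7, 127573340 to 127583307, plus strand) share 876 bases with Ccdc189. The overlap was 78 bases for Ugp2 (chromosome 11, 21321138 to 21371201, minus strand) and 115 for Phka2 (chromosome X, 160502166 to 160598878, plus strand). No exon overlap was found for Pygl (chromosome 12, 70190811 to 70231488, minus strand), Gyg (chromosome 3, 20122084 to 20155317, minus strand), Gbe1 (chromosome 16, 70313949 to 70569716, plus strand), Pgm2 (chromosome 5, 64092950 to 64128351, plus strand) or Pygb (chromosome 2, 150786735 to 150831758, plus strand). Over 387 bases Pygl is 94.8% identical to the pseudogene Gm47451, so reads from that stretch are uncertain.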

How the data were processed

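The authors deposited raw counts per gene as whole numbers, 1 table for each line with 8 libraries, per the file headers, and no normalization had been applied. HTSeq and mm10 are named in the submitters' processing notes, without versions. The aligner, annotation release and strand setting are not given in the sources used here, and standard Illumina preparation of total RNA is recorded per the labels' protocols. Symbols came from GENCODE M21 and matched 49326 of 49585 identifiers, and the other 259 held 0.00714% of counts.

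Groups and replicate numbers came from the library titles. Genes were filtered with filterByExpr, scaled with TMM and tested with glmQLFit (robust) and glmQLFTest of edgeR 4.0.16 in R 4.3.3, 2-sided, with Benjamini-Hochberg adjustment over all genes tested and a threshold of 0.05. Each line was fitted on its own 8 libraries, and the mean and the difference of the effects on all 16. CPM values use TMM-scaled sizes from the fit of 16 libraries, and log2 CPM a prior count of 2. Correlations used 100000 permutations within groups (numpy 2.4.6, scipy 1.17.1). Near copies were searched with blastn 2.17.0. Replicates within groups were distinct libraries: log2 CPM of the 24 pairs correlated at 0.977 to 0.993.

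Members and gene lists were chosen with earlier results of these data known. The text names all 9 members, the isoenzymes and partner subunits, other listed genes with an unadjusted p under 0.05 (at most 10), and the 2 nearest profiles of each member among genes with a mean of at least 10 CPM. Ppp1r3b was added after its values were seen. Some other genes of glycogen metabolism are not reported here. Other settings tried were scaling by RLE or by upper quartiles, a test of unfiltered genes or of those with 10 or more counts per library, DESeq2 1.42.0, a covariate for the title suffix, and leaving out single libraries. The late granule level as a covariate was chosen after seeing the data. The procedure was tested on simulated data with changes larger than the estimates for the 9 members, so that test does not show whether changes as small as these would be found.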

Additional observations from a re-analysis of the deposited data

Results flagged for a closer look

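Pygl in P2WT replicate 10 stood at 808 CPM, while the other 3 libraries of that group were at 548, 548 and 553, a gap that exceeded Dixon's 95% critical value for 4 samples. It was the only such value among 40 groups of libraries examined (9 members and Pgm1, each in 4 groups), where chance alone gives about 1 in 20. The summed late granule markers of that library were at 36494 CPM, against 23710.2 to 24791 in the other 3, and their part in the value was not tested.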

How the results depend on the processing

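No glycogen gene had an adjusted p under 0.05 in any of the 5 comparisons under any alternative run, with 1 library left out included. The number of all genes called did move. DESeq2 called 23 in P2KO against P2WT (edgeR 6), 42 in P2H2KO against P2H2WT (edgeR 10), 65 for the mean effect (edgeR 24) and 419 in P2WT against P2H2WT (edgeR 166), and the filter of at least 10 counts left 87 there. The late granule covariate gave 17 in P2KO against P2WT and 49 for the mean effect. With 1 library left out the counts were 4 to 6, 6 to 9, 15 to 30 (mean effect), 0 (difference) and 76 to 167 (controls). The cause was not tested. The mean effect on Pgm1 passed only with DESeq2 (log2 0.29) and the late granule covariate (0.28). Signs turned for small estimates. With the suffix covariate, P2KO against P2WT gave Ugp2 -0.018 and Phkg2 0.0049, and P2H2KO against P2H2WT gave Ugp2 -0.0011 (-0.013 with the late granule covariate). The difference of the effects gave, with the late granule covariate, Gbe1 0.039, Ugp2 0.046, Phkg2 0.0033 and Pygb 0.028, and Pygb was 0.0092 with upper-quartile factors, 0.011 with no filter and 0.082 with the suffix. P2WT against P2H2WT gave, with the late granule covariate, Gys1 0.047, Pygl 0.056, Pgm2 0.0092 and Phkg2 0.039, and Phkg2 was 0.00033 with RLE, 0.0020 with at least 10 counts, 0.00075 with DESeq2 and 0.0012 with the suffix. Leaving out 1 library turned the sign in 58 fits. The values then ran, in P2KO against P2WT, from -0.15 to 0.15 for Gys1, -0.10 to 0.18 for Gbe1, -0.24 to 0.042 for Gyg, -0.18 to 0.12 for Ugp2, -0.26 to 0.21 for Pygl, -0.081 to 0.011 for Pygb, -0.094 to 0.040 for Pgm2 and -0.037 to 0.021 for Phkg2. In P2H2KO against P2H2WT they ran from -0.0014 to 0.16 for Ugp2, -0.10 to 0.025 for Pygb, -0.066 to 0.027 for Phka2 and -0.037 to 0.030 for Phkg2, and for the mean effect from -0.035 to 0.10 for Gyg, -0.062 to 0.096 for Ugp2, -0.022 to 0.21 for Pygl and -0.032 to 0.0053 for Phkg2. The difference of the effects ran from -0.28 to 0.042 for Gbe1, -0.26 to 0.041 for Ugp2, -0.065 to 0.067 for Pygb and -0.057 to 0.017 for Phkg2. P2WT against P2H2WT ran from -0.16 to 0.0031 for Gys1, -0.073 to 0.034 for Pygb, -0.065 to 0.035 for Pgm2, -0.0058 to 0.085 for Phka2 and -0.032 to 0.028 for Phkg2. No paired analysis was possible because no replicate number was shared between groups.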
